A study of Caenorhabditis elegans with 51 samples.

Results

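Single *Caenorhabditis elegans* embryos of about the 100-cell stage were dissected, and the cells that remained after all descendants of the founder cell C had been taken out (C-) were compared with the cells that remained after the descendants of the founder cell D had been taken out (D-). By their labels D- holds the C cells and C- does not, so the comparison asks which transcripts are lost with the C lineage. The 5 C- libraries are those labelled replicate 1, 2, 4, 5 and 6, and the 6 D- libraries are those labelled 1, 2, 3, 4, 6 and 7, which makes 11 of the 51 libraries of the series. D- replicate 8 was left out because of its own values: 2272 genes lay above 25 RPKM (read counts scaled to transcript length in kilobases and to library size), against 4024 to 5131 in the other D- libraries. The membership was therefore selected on that readout, and embryos that the study had rejected were not used.

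C- embryos carried a red reporter driven by the *R02D3.1* promoter and a green reporter driven by the *hlh-1* promoter, with the genotype written as pR02D3.1::mKate2;pHLH-1::mNG. D- embryos carried 1 green reporter, pFKH-2::mNG. Worms of both strains were grown at 20°C, cells were aspirated at room temperature by their fluorescence, and cDNA was made from polyA RNA in the lysate of each piece of a single embryo. Each library is 1 embryo, so replicates are separate animals. The reporter strain, the lineage removed and the set of embryos dissected coincide in every library, so their shares in any difference cannot be told apart. In such bulk libraries, fewer cells of a type and less RNA per cell cannot be told apart either.

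C is a posterior founder cell of mixed fate. Its anterior granddaughter pair makes mainly epidermis and stays at the surface, and the posterior pair makes body wall muscle and moves inside during gastrulation. In the series the first group was collected as C-out and the second as C-in from the same embryos as C-. D makes body wall muscle only. The Caudal homologue PAL-1 specifies C, and its known targets include muscle, epidermal and posterior patterning genes. Other founder cells make epidermis and muscle as well, so most fate genes of C are also read in other cells of the embryo.

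Total counts were 1952810 to 3054633 in C- and 2029176 to 2361668 in D-, and 3 counts, the limit that a count of 0 allows for counting error, corresponded to 0.982 to 1.54 CPM (library-scaled counts). Between 3946 and 5491 genes exceeded 25 RPKM in C-. Libraries correlated no better within a group than between groups. Over the 4912 tested genes the median Pearson r of log2(RPKM + 25) was 0.55 within C- (10 pairs), 0.55 within D- (15 pairs) and 0.56 between them (30 pairs). Embryo 1 of the C series stood apart. Nothing in the labels sets it aside. Its C-out library held 5330 genes above 25 RPKM, against 1550 to 2708 in the other 4 C-out libraries. The summed RPKM of 4 C markers (*R02D3.1*, *vab-7*, *elt-1* and *nhr-171*) was 172 in that C-out library and 1045 to 4042 in the others, whereas it was 691 in the C- library of embryo 1 and 28.9 to 223 in the other C- libraries. The summed RPKM of the gut genes *end-1*, *elt-2* and *elt-7* was 702 in C-out of embryo 1 and 7.43 to 58.2 in the other C-out libraries. The *R02D3.1* part of the C sum is the dissection marker itself. The same sum was 249 to 511 in D-, and 809 in C-in of embryo 1 against 19.6 to 1166 in the other C-in libraries. In 6 libraries of dissected D cells, which C- holds by its label, it was 21.1 to 722 (median 242). The C sum is therefore not particular to C cells. The D marker *fkh-2* measured 420 RPKM in C-in of embryo 1 and at most 4.74 RPKM in the other C-in libraries, and it measured 1.18 RPKM in C- of embryo 1. The C sum of C- replicate 1 was thus unlike that of the other C- libraries, and which cells the 3 pieces of embryo 1 held was not tested. The library is called C- replicate 1 after its label, and the C transcripts, the calls and the shares are given with and without it.

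No transcript passed the threshold for loss. The test covered the 4912 genes that exceeded 25 RPKM in 5 or more of the 11 libraries. Among these, edgeR's quasi-likelihood test called 0 (0%) lower and 0 (0%) higher in C- at a Benjamini-Hochberg adjusted p under 0.05. At an unadjusted p under 0.05 it placed 75 genes (1.53%) lower and 91 (1.85%) higher. DESeq2 called 6 lower (*C50F4.6*, *elks-1*, *fbxb-104*, *fbxb-25*, *glo-3* and *pes-1*) and 4 higher (*C32D5.3*, *let-268*, *nid-1* and *set-15*), and limma called 0 in either direction at a pseudocount of 25 or of 1. Every C- library was below every D- library for 16 genes (0.326%), and above for 19 (0.387%). The median log2 fold change (C- against D-) was -0.06, and 54% of the tested genes had a value below 0. In counts simulated with the spread of these libraries, edgeR recovered 16 of 100 genes changed 4-fold and 69 of 100 changed 16-fold, and DESeq2 recovered 41 and 89 with 43 false calls.

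*R02D3.1* (chromosome IV in WBcel235, RefSeq symbol *aass-1*), whose promoter marks C cells, measured 394, 4.10, 5.59, 54.7 and 17.1 RPKM in C- replicates 1, 2, 4, 5 and 6. In D- its lowest, median and highest values were 78.7, 132 and 231 RPKM. Replicate 1 lay above all D- libraries and the other 4 lay below all of them. With all libraries the log2 fold change was -0.67 (SE 0.96, edgeR adjusted p = 0.999). Without C- replicate 1 it was -2.93 (SE 0.74, edgeR adjusted p = 0.505).

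The same arrangement recurred for 5 further genes that were rich in C cells or belong to posterior patterning, and these were chosen after their values were seen. *F39B3.2* (RefSeq symbol *frpr-7*, a member of the FMRFamide-related peptide receptor family, chromosome X) measured 139 RPKM in C- replicate 1 and 0.88, 1.33, 1.01 and 0.55 RPKM in replicates 2, 4, 5 and 6. In D- it ranged from 19.4 to 147 RPKM with a median of 93.6, so replicate 1 fell among the D- libraries and the others below them. In C-out it reached 305 to 799 RPKM in embryos 2, 4, 5 and 6 but 82.3 RPKM in embryo 1. With all libraries its log2 fold change was -1.67 (SE 1.35, edgeR adjusted p = 0.999). Without replicate 1 it was -6.54 (SE 0.89, edgeR adjusted p = 0.049), and it was then the only gene called of 5304 tested (0.0189% lower). No C- library in that fit exceeded 25 RPKM for *F39B3.2*, so the gene passed the filter through D- alone. The filter thus selected it for high values in D-, and its separation is partly set by that.

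*T27D12.1* (RefSeq symbol *mfsc-1*, chromosome II) measured 239 RPKM in C- replicate 1 and 0.22 to 2.64 RPKM in the others, against 3.43, 73.9 and 185 RPKM as lowest, median and highest of D-. *T22B7.3* (chromosome X) measured 260 RPKM in replicate 1 and 0.32 to 1.39 RPKM in the others, against 2.3, 61.3 and 117 RPKM in D-. Both were near 0 in C-out of embryo 1 (0.51 and 0.40 RPKM) and reached 598 and 777 RPKM in C-out of other embryos. The log2 fold changes were -0.88 for *T27D12.1* and -0.15 for *T22B7.3* with all libraries, and -6.18 (SE 1.33) and -6.03 (SE 1.33) without replicate 1, each with an edgeR adjusted p of 0.253. In the fit without replicate 1 both genes passed the filter through D- alone, so their separation is partly set by it. Reads of *F39B3.2*, *T22B7.3* and *R02D3.1* cannot be told apart from those of genes annotated on the opposite strand at the same place (*F39B3.4*, *srv-7* and *grl-19*).

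*cwn-1*, which encodes a Wnt ligand of the posterior embryo, measured 150, 23.6, 4.70, 26.4 and 17.3 RPKM in C-. In D- its lowest, median and highest values were 49.3, 113 and 173 RPKM. It was a transcript of the internalizing cells, with 486 to 1430 RPKM in C-in of embryos 2, 4, 5 and 6 and 6.45 RPKM in C-in of embryo 1. The log2 fold change was -1.34 (SE 0.77, edgeR adjusted p = 0.999), and -2.62 (SE 0.70, adjusted p = 0.598) without replicate 1. *nob-1*, a posterior Hox gene of the Abdominal-B class, measured 188 RPKM in replicate 1 and 0.93 to 48.3 RPKM in the others, against 55.6, 193 and 392 RPKM as lowest, median and highest of D-. The fitted value was -1.87 on the log2 scale (SE 0.98, edgeR adjusted p = 0.999), and -3.32 (SE 0.96, adjusted p = 0.664) without replicate 1. For *R02D3.1*, *F39B3.2*, *T27D12.1*, *T22B7.3*, *cwn-1* and *nob-1* alike, the 4 other C- libraries then did not overlap with D-, as was so for 55 (1.04%) of all genes tested in the lower and 59 (1.11%) in the higher direction.

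**Figure D1:**
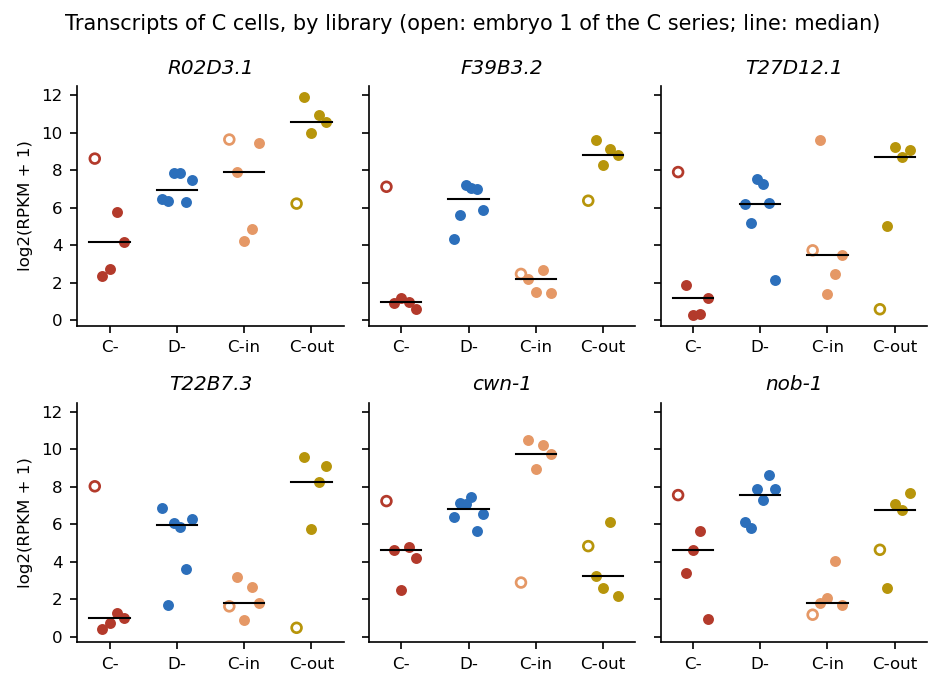
Abundance, as log2(RPKM + 1), of 6 transcripts in each library of C-, D-, C-in and C-out. Open circles are the libraries of embryo 1 of the C series and lines are medians. The open C- circle lies within or above the D- points in all 6 panels, and the filled C- points lie below them.

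C- was also set against the mean of D- and MS-. By its label MS- is what remains of 7 embryos after removal of the MS lineage, which makes pharynx and mesoderm, and it again holds C cells. The summed RPKM of the MS genes *ceh-51*, *tbx-35* and *pha-4* was 4.02 to 401 in MS-. Its median was 179 in MS-, 104 in C- and 125 in D-, so these markers were not lower in MS-. Which cells the MS- libraries held was not tested. Over the 18 libraries of C-, D- and MS-, edgeR called 1 of 6019 genes lower (0.0166%) and 1 higher (0.0166%). The former was *fbxb-25* and the latter *W06H8.5*, each with an adjusted p of 0.0402. Both calls were lost with D- replicate 8 in the fit and when most single libraries were left out. For *fbxb-25* no C- library exceeded 25 RPKM, so it passed the filter through D- and MS- alone. Without C- replicate 1, 16 of 5925 genes were lower (0.27%) and 8 higher (0.135%), and *R02D3.1*, *T27D12.1* and *T22B7.3* were the 3 C-rich genes among the 16. No C- library in that fit exceeded 25 RPKM for *fbxb-25*, *fbxb-42*, *skr-10*, *skr-12*, *sdz-30*, *T17A3.12*, *T22B7.3*, *T27D12.1*, *C28G1.4*, *K05F6.4* or *ZK228.3*. These genes passed the filter through D- and MS- alone, so their separation is partly set by it. C- replicate 1 was at or above the lowest D- library for 14 of those 16 genes and at or below the highest D- library for all 8 others, but genes called only in its absence are chosen for such values, so these counts are a description. The genes named from these calls were chosen after their values were seen. Among the 16 were *skr-7*, *skr-10* and *skr-12*, which encode SKP1-related proteins of ubiquitin ligases. *skr-7* measured 498 RPKM in C- replicate 1 and 23.2 to 111.9 RPKM in the other C- libraries, against 151 to 981 RPKM in D-. *skr-10* measured 256 RPKM in replicate 1 and 0.50 to 24.7 RPKM in the others, against 32.7 to 478 RPKM in D-. *T17A3.12* was at 0 in the other 4 C- libraries, at 82.8 RPKM in replicate 1 and at 19.7 to 161 RPKM in D-, and it was at 0 in every C-in and C-out library as well. Among the 8 genes higher in C-, *apl-1*, the homologue of the amyloid precursor protein, measured 135 to 283 RPKM in the 4 libraries, 44.5 RPKM in replicate 1 and 2.71 to 107 RPKM in D-. *mab-21*, a regulator of cell fate in the male tail, measured 36.7 to 232 RPKM in the 4 libraries, 32.1 RPKM in replicate 1 and 1.36 to 32.7 RPKM in D-. Of these 8 genes 7 were C-rich by the rule given further on. For this count and for the 3 of 16, the share among genes tested against D- was 903 of 4912. The 2 comparisons share all C- and D- libraries, and they are not independent.

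The listed regulators of C and of the posterior body were mostly too low or too sporadic for the test. Of the 11 genes of that list, 5 passed the filter, 4 had a log2 fold change below 0 and 0 were called by edgeR (0 also at an unadjusted p under 0.05). The share below 0 was 54% over all tested genes. *pal-1* itself had a log2 fold change of 0.87 (SE 0.63, edgeR adjusted p = 0.999), with 76.2 to 253 RPKM in C- and 9.68 to 232 RPKM in D-. *vab-7*, an even-skipped homologue of posterior C cells, measured 0 to 9.50 RPKM in C-. It exceeded 25 RPKM in 1 D- library, with 161 RPKM, and reached 920 RPKM in C-in. For *vab-7* the two-sided exact permutation test over 462 assignments of libraries gave p = 0.636, where the smallest p this design allows is 0.00433. *mab-5*, a Hox gene, reached 598 RPKM in C-in and exceeded 25 RPKM in 1 C- library and in 0 D- libraries (exact permutation p = 0.831).

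In all, 124 genes were listed, of which 49 passed the filter, 74 did not and 1 was not found. Of these 74 genes, 39 exceeded 25 RPKM in at least 1 library. By the exact permutation test 0 were lower and 1 was higher in C- at an unadjusted p under 0.05. The exception was *nhr-23*, a nuclear receptor of the moulting programme, with 2.93 to 86.4 RPKM in C- and 0 to 20.3 RPKM in D- (exact permutation p = 0.0346).

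A wider set of transcripts rich in C cells was not lower in C-. C-rich genes were defined on the dissected cells. Their mean RPKM + 25 in C-in or C-out was at least 2 times that of both D cells (D+) and MS cells (MS+). C-in and C-out came from the embryos of C-, and D+ from those of D-. The lists are therefore not independent of the comparison, and a difference between the sets of embryos would enter both. There were 1584 C-rich genes and 903 passed the filter. Their median log2 fold change was 0.13, with 42.7% below 0, beside -0.06 and 54% over all tested genes. edgeR placed 6 of them lower and 42 higher at an unadjusted p under 0.05, where 1.53% and 1.85% of all tested genes lay, and called 0. In 1 C-rich gene every C- library lay below D- and in 8 above, beside 0.326% and 0.387% of all tested genes. The median was 0.08 for the 424 genes whose ratio was larger in C-in, and 0.18 for the 479 with the larger ratio in C-out. Genes rich in D cells by the mirrored rule, 224 tested, had a median of -0.23 with 62.1% below 0. By their labels C- holds the D cells and D- does not, so both medians run opposite to the labels. Lists that were formed without C-in and C-out of embryo 1 gave a C-rich median of 0.10 and a D-rich median of -0.26 in the fit without C- replicate 1. The cause of these directions was not tested.

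**Figure D2:**
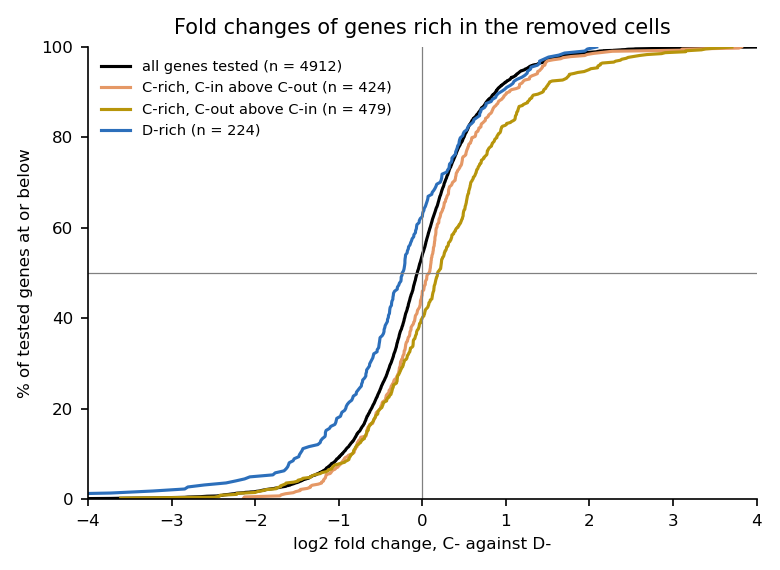
Cumulative share of tested genes, in percent, against the log2 fold change of C- over D-, for all genes, for C-rich genes split by the C library in which they were higher, and for D-rich genes. The curve of genes higher in C-out lies to the right of all tested genes over most of its range, with a median of 0.18, and D-rich genes lie to the left with a median of -0.23.

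How much could have been lost was estimated from the C embryos. With weights that the study set loosely by mass, 0.0625 for each of C-in and C-out and 0.875 for C-, the C cells held a median of 17.1% of the transcripts of a C-rich gene, against 10.8% over all tested genes. For the C-rich genes this corresponds to a median log2 change of -0.08 in C- against the whole embryo, beside 0.03 over all tested genes. D- itself lacks the D cells, so these values do not share the baseline of the fold changes against D-. The share exceeded 50% for 12 of the 903 genes, among them *moc-2* (61.8%), *R02D3.1* (60.6%), *cwn-1* (56.8%) and *F39B3.2* (52.5%). Of these 12 genes 11 had a log2 fold change below 0 and the median was -1.68, and edgeR placed 1 (*moc-2*) lower at an unadjusted p under 0.05 and called 0. Over all tested genes 54% lay below 0 and 1.53% were lower at that p. The C- libraries enter both the share and the comparison, so a low value in C- raises the share and the 2 are not independent. Without embryo 1, an alternative chosen after seeing the data, 20 of the 903 genes exceeded 50%, the first 12 among them. The share of *F39B3.2* was then 97.6%, that of *R02D3.1* 89.1%, that of *cwn-1* 80.1% and that of *moc-2* 60.3%. *moc-2* and *ttr-20* were named after their values were seen. *moc-2*, a gene of molybdenum cofactor synthesis (chromosome V), measured 0, 4.77, 0, 25.2 and 0 RPKM in C- and 0 to 144 RPKM in D-. In C-out it measured 41.3, 0, 130, 122 and 385 RPKM, and it was at 0 in every C-in library. The groups overlapped through D- replicate 7, which was at 0 (log2 fold change -3.61, SE 1.65, edgeR adjusted p = 0.999). *ttr-20*, a transthyretin-related gene, measured 38.7, 0.70, 20.6, 0.60 and 25.9 RPKM in C-, 12 to 110 RPKM in D- and 256 to 418 RPKM in C-out of embryos 2, 4, 5 and 6. Its C- and D- libraries overlapped too, and the fitted log2 value was -1.70 (SE 1.03, edgeR adjusted p = 0.999).

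The C-rich gene whose C- libraries all lay below D- was *Y23H5B.1* (chromosome I), with 1.62, 71.8, 136, 172 and 0 RPKM in C- and 195, 254 and 407 RPKM as lowest, median and highest of D-. The log2 value was -1.90 (SE 1.08, edgeR adjusted p = 0.999). It was listed as C-rich through a single C-out library, that of embryo 1, with 252 RPKM, where the other 4 held at most 3.73 RPKM. *T09A12.2* (RefSeq symbol *gpx-6*, a glutathione peroxidase) did not pass the filter and was chosen after its values were seen. It had 5 counts in all over the 5 C- libraries (0 to 1.49 RPKM) and reached 989 RPKM in C-out. In D- it was sporadic, with 0.59 RPKM as lowest, 33.6 as median and 247 as highest value.

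The 10 tested genes with the largest C-rich ratio were *cutl-2*, *wrt-10*, *sams-1*, *dsl-3*, *dpy-14*, *dao-2*, *gst-20*, *sqrd-1*, *lips-10* and *C14F11.6*, and 3 of them had a log2 fold change below 0. *dpy-14*, a cuticle collagen gene (chromosome I), measured 561, 1278, 1343, 1227 and 3352 RPKM in C-. In D- its lowest, median and highest values were 128, 541 and 922 RPKM, and in C-out it ranged from 2479 to 8036 RPKM. C- replicate 1 alone lay within the D- range, and the other 4 lay above it. The log2 fold change was 1.5 (SE 0.50, edgeR unadjusted p = 0.0104, adjusted p = 0.999).

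*wrt-10*, a hedgehog-related gene, measured 258 to 1559 RPKM in C- and 297 to 1055 RPKM in D-, with a log2 fold change of 0.78 (SE 0.44, edgeR adjusted p = 0.999). *cutl-2*, a cuticlin-like gene, measured 11.4 to 692 RPKM in C- and 0.34 to 259 RPKM in D- (log2 fold change 1.76, SE 1.19, edgeR adjusted p = 0.999). *dsl-3*, which encodes a ligand of the Delta and Serrate type, overlapped with 406 to 1365 RPKM in C- and 339 to 540 RPKM in D-. The log2 fold change of *dsl-3* was 0.58 (95% interval -0.23 to 1.38). *sqrd-1*, a sulfide oxidoreductase gene, measured 61.7 to 537 RPKM in C- and 0 to 136 RPKM in D- (log2 fold change 3.34, SE 1.35, edgeR adjusted p = 0.999). *gst-20*, a glutathione transferase gene, had a log2 fold change of -0.40 (95% interval -1.33 to 0.53).

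Of the 16 listed genes of epidermal fate and junctions that the tables hold, 8 passed the filter, 3 of these had a log2 fold change below 0, and edgeR called 0 (0 at an unadjusted p under 0.05). The share below 0 was 54% over all tested genes. *elt-1*, the GATA factor that starts epidermal fate, measured 19.8 to 270 RPKM in C- and 18.5 to 282 RPKM in D-. For *elt-1* the log2 fold change was -0.17 (95% interval -1.65 to 1.31). *lin-26*, a zinc finger gene that maintains epidermal fate, measured 112.3 to 332 RPKM in C- and 108 to 289 RPKM in D-, with a log2 fold change of 0.08 (95% interval -0.74 to 0.90). Both intervals include 0, and the ranges of the groups overlapped almost fully for either gene. *nhr-25*, a nuclear receptor of epidermal development, measured 28.7 to 181 RPKM in C- and 57.4 to 325 RPKM in D- (log2 fold change -1.05, SE 0.55, edgeR adjusted p = 0.999). *ajm-1*, a component of epithelial junctions, measured 0.70 RPKM in C- replicate 1 and 26 to 111.6 RPKM in the others, against 1.43 to 48.2 RPKM in D- (log2 fold change 1.73, SE 1.04, edgeR adjusted p = 0.999). *elt-3*, a GATA factor of differentiating epidermis, was high in every C-out library (166 to 792 RPKM). It was sporadic in the remaining cells, with 16.4, 0.79, 185, 13.7 and 0 RPKM in C- and 1.61 to 32 RPKM in D- (exact permutation p = 0.745).

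**Figure D3:**
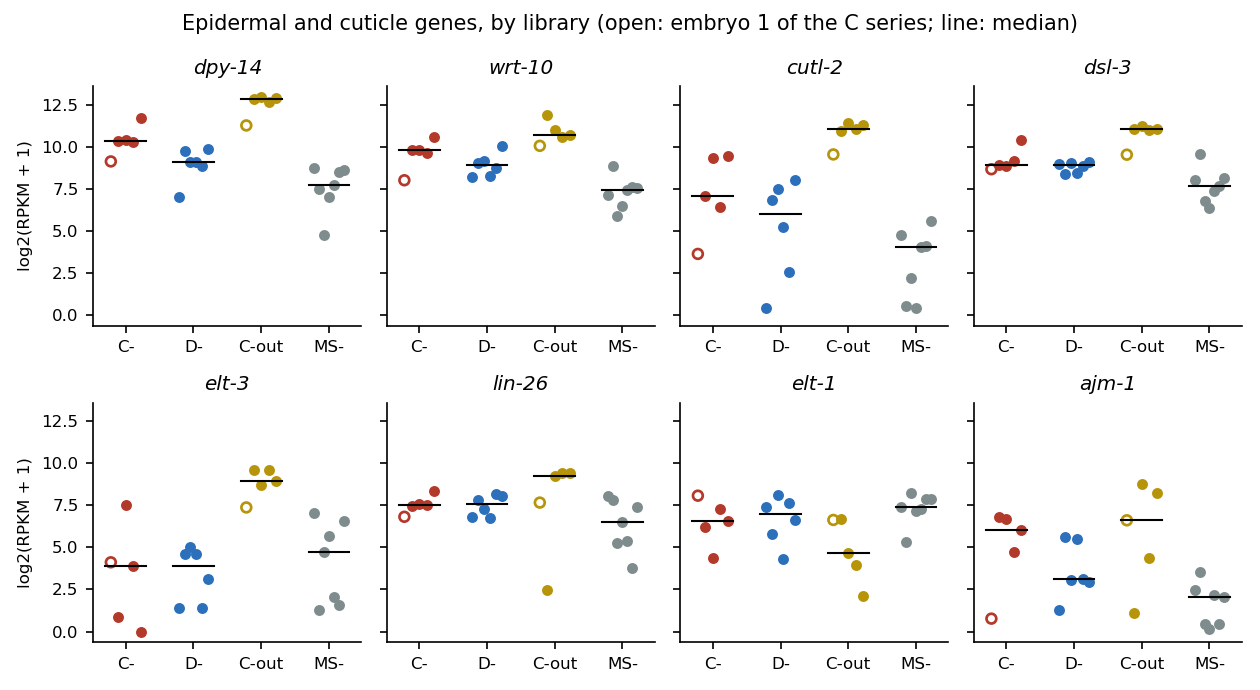
Abundance, as log2(RPKM + 1), of 8 epidermal, cuticle and junction genes in each library of C-, D-, C-out and MS-. Open circles are embryo 1 of the C series and lines are medians. *dpy-14* lies between 561 and 3352 RPKM in C-, between 128 and 922 in D- and between 26.5 and 419 in MS-.

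Muscle regulators, which both C-in and D cells express, overlapped between the groups. *hlh-1*, the MyoD homologue, measured 218, 55.2, 48.5, 82.8 and 104 RPKM in C- and 52.3, 105 and 146 RPKM as lowest, median and highest of D-. The *hlh-1* log2 fold change was 0.01 (95% interval -1.16 to 1.17). *unc-120*, the SRF-like partner of *hlh-1*, had a log2 fold change of 0.98 (95% interval -0.28 to 2.24), with 67 to 254 RPKM in C- and 15 to 132 RPKM in D-. *hnd-1*, a Hand-like factor of early muscle, measured 882, 245, 1.56, 103 and 163 RPKM in C- and 246 to 588 RPKM in D-. Replicate 1 lay above D- and the other 4 below, and the log2 fold change was -0.34 (SE 0.86), or -1.41 (SE 0.85, edgeR adjusted p = 0.9996) without replicate 1. Of 20 listed muscle genes 9 passed the filter, 2 had values below 0 and edgeR called 0 (0 at an unadjusted p under 0.05), beside 54% of all tested genes below 0.

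By their labels C- holds the D cells and D- does not. *fkh-2*, whose promoter marks D, measured 1.18, 237, 4.71, 27.6 and 229 RPKM in C- and 0.35, 39.8 and 136 RPKM as lowest, median and highest of D-. The groups overlapped and the log2 fold change was 0.88 (95% interval -1.96 to 3.71). In dissected D cells it measured 93.9 to 1749 RPKM. Marker sums of gut, neural, MS and germline genes varied as widely within a group as between groups. The summed RPKM of 3 gut genes (*end-1*, *elt-2* and *elt-7*) was 6.39 to 1187 in C- and 193 to 2187 in D-, that of 3 neural genes (*hlh-14*, *cnd-1* and *ngn-1*) 177 to 963 and 111 to 852, that of 3 MS genes (*ceh-51*, *tbx-35* and *pha-4*) 6.53 to 159 and 82.2 to 203, and that of 3 germline genes (*nos-2*, *pie-1* and *pgl-1*) 7.74 to 148 and 20.9 to 204. The neural sum was also 13.3 to 3033 in C-out (median 743), so it is not free of the removed cells. *elt-4*, a GATA gene of the gut, was at 0 counts in all 5 C- libraries and at 0 to 154 RPKM in D- (exact permutation p = 0.0909).

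The other lists held few tested genes. Over all tested genes 54% lay below 0, and 1.53% were lower and 1.85% higher at an unadjusted p under 0.05. Of 7 genes of D and its muscle 7 passed the filter, 2 had a log2 fold change below 0 and the median was 0.05. The gut list had 4 tested genes of 9, 3 of them below 0, and the MS and pharynx list 4 of 10, all 4 below 0 and 1 (*pes-1*) at an unadjusted p under 0.05. By the mirrored rule given above *pes-1* was D-rich, so it does not stand for MS alone. Of 8 tested neural genes 4 lay below 0. The Notch and germline lists had 1 tested gene each, with log2 values of -0.32 and -0.36. Of 17 listed maternal transcripts, 4 were tested, 1 was below 0 and 2 were higher at an unadjusted p under 0.05. *skn-1*, a maternal regulator of endomesoderm fate, measured 20, 187, 208, 60 and 477 RPKM in C- and 12.7 to 91.2 RPKM in D- (log2 fold change 2.33, SE 0.80, edgeR adjusted p = 0.999). *par-3*, a polarity gene, measured 18.9 to 69.8 RPKM in C- and 4.38 to 26.5 RPKM in D- (log2 fold change 1.77, SE 0.56, edgeR adjusted p = 0.999). The groups overlapped for both, and edgeR called 0 genes of any of these lists.

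Of the 10 genes of smallest unadjusted p among those lower in C-, 0 were C-rich and 3 were D-rich (*fbxb-104*, *skr-12* and *pes-1*). Over the 4912 tested genes 903 were C-rich and 224 were D-rich. None of these 10 passed the adjusted threshold in edgeR. They were *fbxb-25*, *C50F4.6*, *glo-3*, *fbxb-104*, *set-2*, *elks-1*, *fbxb-10*, *skr-12*, *M106.7* and *pes-1*. *fbxb-25*, an F-box gene (chromosome II), measured 0.82, 1.01, 0, 0 and 0 RPKM in C- and 8.18, 64.7 and 124 RPKM as lowest, median and highest of D-. It was near 0 in the removed cells as well, with at most 0.70 RPKM in C-in and 3.26 RPKM in C-out. Its log2 fold change was -7.21 (SE 1.25, edgeR unadjusted p = 6.32e-05, adjusted p = 0.31).

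*C50F4.6* (chromosome V) was abundant in all libraries, with 766, 525, 615, 570 and 481 RPKM in C- and 966, 1268 and 2472 RPKM as lowest, median and highest of D-. The groups did not overlap, and the log2 fold change was -1.41 (SE 0.32, edgeR adjusted p = 0.711). *pes-1*, a forkhead gene of early embryonic lineages including D, measured 0.46, 12.5, 0, 0 and 0 RPKM in C- and 4.89 to 201 RPKM in D- (log2 fold change -5.18, SE 1.61, edgeR adjusted p = 0.999). *glo-3*, which acts in the formation of gut granules, measured at most 4.2 RPKM in C- and 1.67 to 146 RPKM in D-, with a log2 fold change of -5.67 (SE 1.38, edgeR adjusted p = 0.999). *elks-1*, which encodes a protein of the presynaptic active zone, measured 7.21 to 14.9 RPKM in C- and 15 to 101 RPKM in D-, without overlap by a narrow gap (log2 fold change -1.99, SE 0.60, edgeR adjusted p = 0.999). No C- library exceeded 25 RPKM for *fbxb-25*, *pes-1*, *glo-3* or *elks-1*, so these 4 genes passed the filter through D- alone. The filter thus selected them for high values in D-, and their separation is partly set by it. *skr-12* measured 57.1, 10.9, 1.96, 17.7 and 16.5 RPKM in C- and 32.6 to 240 RPKM in D-, where replicate 1 was again the C- library among D- (log2 fold change -2.80, SE 0.86, edgeR adjusted p = 0.999).

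Among genes higher in C-, the 10 of smallest unadjusted p were *let-268*, *C32D5.3*, *set-15*, *nid-1*, *imp-2*, *ani-1*, *sel-11*, *ccr-4*, *hch-1* and *W06H8.5*. Of these 3 were C-rich (*nid-1*, *hch-1* and *W06H8.5*), beside 903 of the 4912 tested genes. Of the 10 genes, 0 passed the adjusted threshold in edgeR. *let-268*, a lysyl hydroxylase gene that acts on type IV collagen, measured 179, 98, 127, 143 and 106 RPKM in C- and 3.41, 15.4 and 42.9 RPKM as lowest, median and highest of D-. Its log2 fold change was 2.81 (SE 0.56, edgeR adjusted p = 0.544). D- replicate 8, left out for its low number of genes, held 946 RPKM, and with it the fold change turned to -0.97.

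*nid-1*, which encodes the basement membrane protein nidogen, measured 7.26, 98.5, 110, 141 and 196 RPKM in C- and 0.57 to 25.3 RPKM in D-. Replicate 1 alone overlapped with D-, and the log2 fold change was 3.82 (SE 0.98, edgeR adjusted p = 0.999). *set-15*, a gene of the SET domain family, measured 53.2, 44.3, 39.8, 72.8 and 127 RPKM in C- and 0.40 to 11.2 RPKM in D-, without overlap (log2 fold change 4.08, SE 0.88, edgeR adjusted p = 0.544). *C32D5.3* (RefSeq symbol *efr-3*) measured 48.7 to 121 RPKM in C- and 2.66 to 18.4 RPKM in D- (log2 fold change 2.92, SE 0.61, edgeR adjusted p = 0.544). For *set-15* and *C32D5.3* no D- library exceeded 25 RPKM, so both passed the filter through C- alone. Their separation from D- is partly set by that filter. *hch-1*, an astacin protease gene known from hatching, measured 38.7, 236, 309, 253 and 412 RPKM in C- and 1.27 to 72.3 RPKM in D- (log2 fold change 3.15, SE 0.92, edgeR adjusted p = 0.999).

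**Figure D4:**
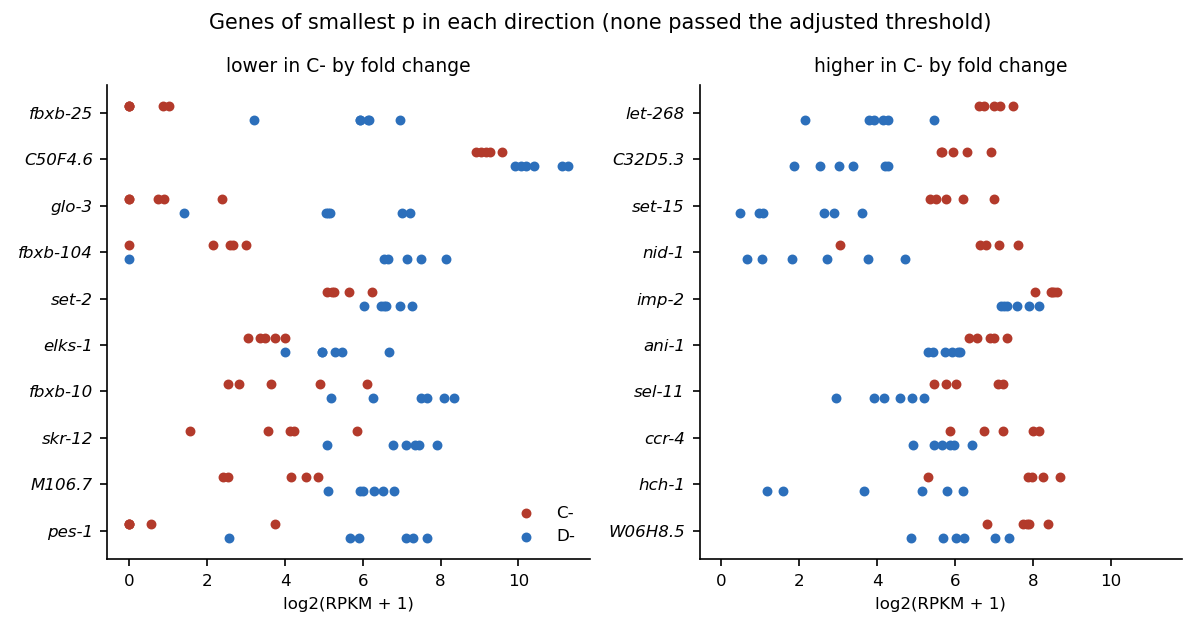
Abundance, as log2(RPKM + 1), in each C- and D- library of the 10 genes of smallest unadjusted p in each direction. Points of the 2 groups do not overlap for *fbxb-25*, *C50F4.6*, *elks-1* and *M106.7* on the left, or for *let-268*, *C32D5.3*, *set-15*, *ani-1* and *sel-11* on the right. Of these genes, *fbxb-25* and *elks-1* passed the filter through D- alone, and *C32D5.3* and *set-15* through C- alone.

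Since 3 F-box genes and *skr-12* stood among the 10, the families were described after their values were seen. F-box proteins and SKP1-related proteins are the substrate and adaptor subunits of SCF ubiquitin ligases. Of 39 tested *fbxb* genes, 27 had a log2 fold change below 0, 5 were lower and 1 was higher at an unadjusted p under 0.05, and the median was -0.73. Over all tested genes 54% lay below 0, and 1.53% were lower and 1.85% higher at that p. Without D- replicate 6 the *fbxb* median was 0.02 over the 30 genes that then passed the filter. Of 14 *skr* genes, 12 were below 0, beside the same 54% of all tested genes, and the median was -1.24, and leaving out a library kept it between -1.66 and -0.88. In the removed cells *skr-12* measured 548 RPKM in C-in of embryo 1 and at most 50.3 RPKM in the other C-in libraries. For comparison, 64 histone genes had a median of 0.19 and 75 ribosomal protein genes one of -0.06. No gene of these families passed the adjusted threshold against D- in edgeR.

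**Figure D5:**
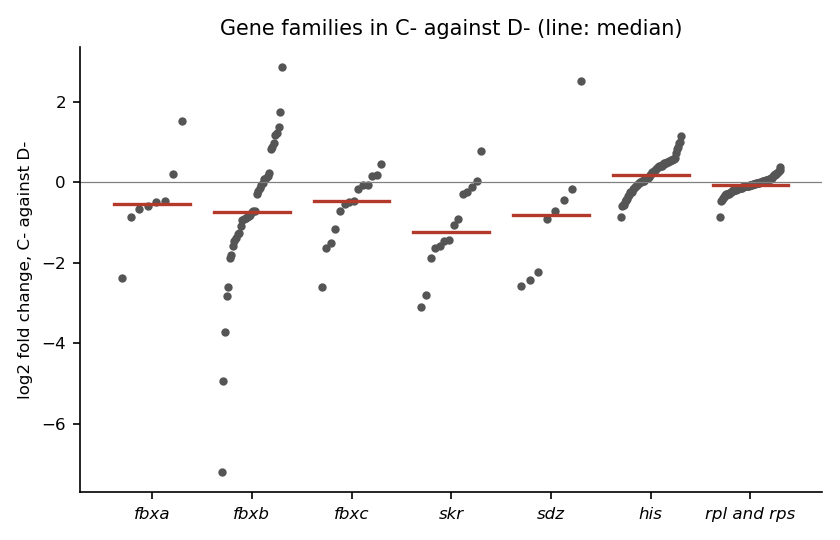
Log2 fold change of C- over D- for each tested gene (points) of 7 gene families, with the median as a line. The *skr* median is -1.24 and the *fbxb* median -0.73, whereas the 75 ribosomal protein genes lie around a median of -0.06.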

How the data were processed

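The authors sequenced SMARTer cDNA of single embryo pieces in Nextera XT libraries. The deposited counts are whole reads per gene of 31383 genes, without normalization, and RPKM is the authors' scaling of those counts by the deposited gene lengths and library totals. The build ce10 and bedtools are named in the submitters' processing notes, while aligner, counting program and strand rule were not given in the sources used here, so reads of overlapping genes cannot be told apart. Deposited coverage tracks were not used here. A length of 2500 bases stood for 1350 genes, 0 of them named here.

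Groups and replicate numbers came from the labels. Counts were scaled by TMM (trimmed mean of M values) and tested with edgeR 4.0.16 (quasi-likelihood, Benjamini-Hochberg adjustment over all tested genes) in R 4.3.3, on genes above 25 RPKM in at least 5 libraries. In fits against D- without a C- library or with rejected embryos, the filter asked for as many libraries as the smaller group held. DESeq2 1.42.0 and limma 3.58.1 on log2(RPKM + 25) were alternatives, with the scaling, filter, pseudocount, library and block choices of the closing section. Genes that failed the filter were compared by mean log2(RPKM + 25) with a two-sided exact permutation test. Sums over lists were given as values only. The test was checked on simulated counts of these 4912 genes, in which edgeR made 2 false calls, limma 8 and DESeq2 43. There limma was run on log2(CPM + 25), so its simulated calls do not check the limma fits on RPKM. Identifiers and chromosomes came from WBcel235 annotation.

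The libraries and gene lists were chosen with earlier results of these data known. Named genes are the listed markers, the 10 genes of smallest p in each direction (where fewer than 10 passed), the 10 C-rich genes and 5 D-rich genes of largest ratio, and genes chosen after their values were seen, from the C shares, gene families and the calls without C- replicate 1 (among them *moc-2*, *ttr-20*, *skr-7*, *skr-10*, *T17A3.12*, *apl-1* and *mab-21*).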

Additional observations from a re-analysis of the deposited data

Results flagged for a closer look

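Samples far from the rest of their group were looked for in 55 groups of values, and 11 stood out. The rule is set to mark about 1 in 20 by chance, but some of these groups were genes named for their values. The 11 are therefore given as a description and are not set against that rate. With replicate 8 kept, the D- group had that library as its lowest, with 2272 genes above 25 RPKM. C- replicate 1 was the highest of its group for *R02D3.1* (394 RPKM), *cwn-1* (150 RPKM), *nob-1* (188 RPKM) and *skr-12* (57.1 RPKM). C- replicate 4 was the highest for *elt-3* (185 RPKM) and *glo-3* (4.2 RPKM), C- replicate 2 for *pes-1* (12.5 RPKM) and C- replicate 5 for *vab-7* (9.50 RPKM). In D-, replicate 2 was the highest for *vab-7* (161 RPKM) and replicate 7 for *elks-1* (101 RPKM).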

How the results depend on the processing

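The spread between single embryos limits the comparison with D-. Leaving out C- replicate 1 moved 6 single C or posterior genes, given above, but left the C-rich median at 0.13. The count of genes called against D- was 0 in each direction with D- replicate 8, with the rejected embryos, with RLE scaling, in both limma fits, with MS- in the fit and with the replicate block. The C- and D- numbers come from different embryos (correlation of deviations -0.06 to 0.11 over 4 same-numbered pairs, so the numbers mark no pairing), and the replicate block on 8 libraries gave 0 lower and 0 higher, as did the same 8 libraries without it. DESeq2 gave 6 lower and 4 higher. No filter gave 43 lower and 32 higher of 22603 genes, with a median of -1.33. Leaving out a library gave 0 to 1 lower and 0 higher. Against D- and MS-, adding D- replicate 8 gave 0 lower and 0 higher, and leaving out a library gave 0 to 16 lower and 0 to 8 higher (chosen after seeing the data), with the most without C- replicate 1 and 6 lower and 3 higher without D- replicate 4. Medians of the C-rich and D-rich lists moved by less than the spread between C- libraries in all alternatives tried. Directions turned for the following genes. None was called against D- by edgeR with the filter, but *let-268* was called higher by DESeq2 and without a filter, and *T22B7.3* lower against D- and MS- without C- replicate 1. With D- replicate 8 the log2 fold change was -0.97 for *let-268*, 0.0504 for *elt-1*, 0.0756 for *T22B7.3*, -0.10 for *pal-1* and, by permutation, -0.18 for *mab-5*. With the replicate block it was 0.0368 for *elt-1*, -0.58 for *fkh-2* and -0.0926 for *hlh-1*, and on the same 8 libraries without it 0.0104 for *elt-1*, 0.0881 for *hnd-1* and 0.34 for *T22B7.3*. For *hlh-1* it was -0.0175 with RLE scaling, -0.018 with DESeq2, -0.10 and -0.14 with limma and -0.061 without a filter, and for *lin-26* -0.0017 without a filter. A pseudocount of 1 gave -0.10 for *elt-3* and -0.0534 for *mab-5*. Leaving out a library gave -0.68 to 0.11 for *elt-1*, -0.26 to 0.23 for *lin-26*, -0.47 to 0.19 for *hlh-1*, -6.03 to 0.19 for *T22B7.3* and -0.94 to 0.022 for the *fbxb* median. The cause of these turns was not tested.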
